A study of Mus musculus with 8 samples.

Results

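The genes of antigen presentation by MHC class I were followed through the left ventricle of dystrophin-deficient mice. They were 10 of the 14578 genes measured, chosen by symbol: the class I heavy chains H2-K1, H2-D1, H2-Q6 and H2-Q7, their partner B2m, the peptide transporter Tap1 and Tap2, and the immunoproteasome subunits Psmb8, Psmb9 and Psmb10. All 10 were present and all 10 passed the filter on low values, which 13783 genes passed (2 or more libraries with an abundance of 1 or more). The choice was made because these genes were already known to be higher in mdx than in wild-type hearts of this series. Their differences from wild type are therefore a description: how many of the 10 the fit over all genes called is given, and nothing is read from it. Only the comparison of the 2 mdx genotypes with each other is read as a test. Genes outside the 10 are given with the calls of the same fit. Their lists were also chosen with earlier results of these data known, so their differences from wild type are descriptions as well.

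RNA of the left ventricle was sequenced in 8 libraries from mice of 6 months on a C57 background: 2 of wild type (WT), 3 of mdx and 3 of mdx sln+/- mice. The mdx mouse is a model of Duchenne muscular dystrophy in which a mutation of Dmd removes dystrophin from muscle, and the labels call it a heart failure model. The mdx sln+/- mice carry the same Dmd mutation and in addition 1 copy less of Sln, which encodes sarcolipin, an inhibitor of the calcium pump of the sarcoplasmic reticulum. No group had a drug treatment per the labels, though titles and source names of the mdx sln+/- libraries begin with TRT and Treat. No group carried the Sln change without the mdx mutation. Whether each library came from its own animal is not given, so a p-value here measures the spread between libraries, which may be technical.

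MHC class I molecules show peptides from inside the cell to cytotoxic T cells and natural killer cells. The proteasome cuts cytosolic proteins into peptides, the transporter TAP carries them into the endoplasmic reticulum, and a heavy chain with B2m binds them there and takes them to the surface. In the immunoproteasome, Psmb8, Psmb9 and Psmb10 take the places of the constitutive catalytic subunits Psmb5, Psmb6 and Psmb7. Interferons are known inducers of this machinery, and cardiomyocytes are known for low class I at rest.

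Levels are given as log2(abundance + 1), with the abundances of all measured transcripts of a gene summed. It is not stated if longer transcripts were scaled down, so levels were compared between libraries and not between genes. Sequencing depth is unknown, and the abundances summed to between 780262 and 924253 per library. Dmd was at 6.60 and 6.98 in WT, at 4.22 to 4.32 in mdx and at 4.09 to 4.25 in mdx sln+/-, which fits the genotype labels, whereas Sln was not analysed here. Cardiomyocyte markers summed to between 45000.3 and 52150.5 in every library. The Y-linked gene Ddx3y was at 1.29 in WT 2 and 1.76 in mdx sln+/- 3 and between 3.94 and 6.64 in the others. In all transcripts the mean of mdx 2 and mdx sln+/- 2 equalled that of the remaining 4 dystrophin-deficient libraries to within 5.12e-05; the reason is not given in the sources used here, and a correction before deposit is not stated. Hence mdx 2 and mdx sln+/- 2 deviate from their group means in opposite directions, and the fit holds a term for this contrast.

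Every member was higher in each of the 6 mdx and mdx sln+/- libraries than in both WT libraries. The median of the 10 differences was 1.44 (log2) in mdx and 1.35 in mdx sln+/-, beside medians of 0.02 and 0.05 over all genes tested. In limma, 9 of the 10 were called higher in mdx against WT at an adjusted p under 0.05, beside 8.15% of all genes, and 10 of 10 in mdx sln+/- against WT, beside 9.41%. Levels above both WT libraries in all 6 other libraries were seen in 24.1% of all genes. None of these counts is evidence of its own, because the genes were picked from this contrast, and both comparisons share the 2 WT libraries. In this bulk RNA, more cells that express a gene and more RNA per cell cannot be told apart.

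**Figure D1:**
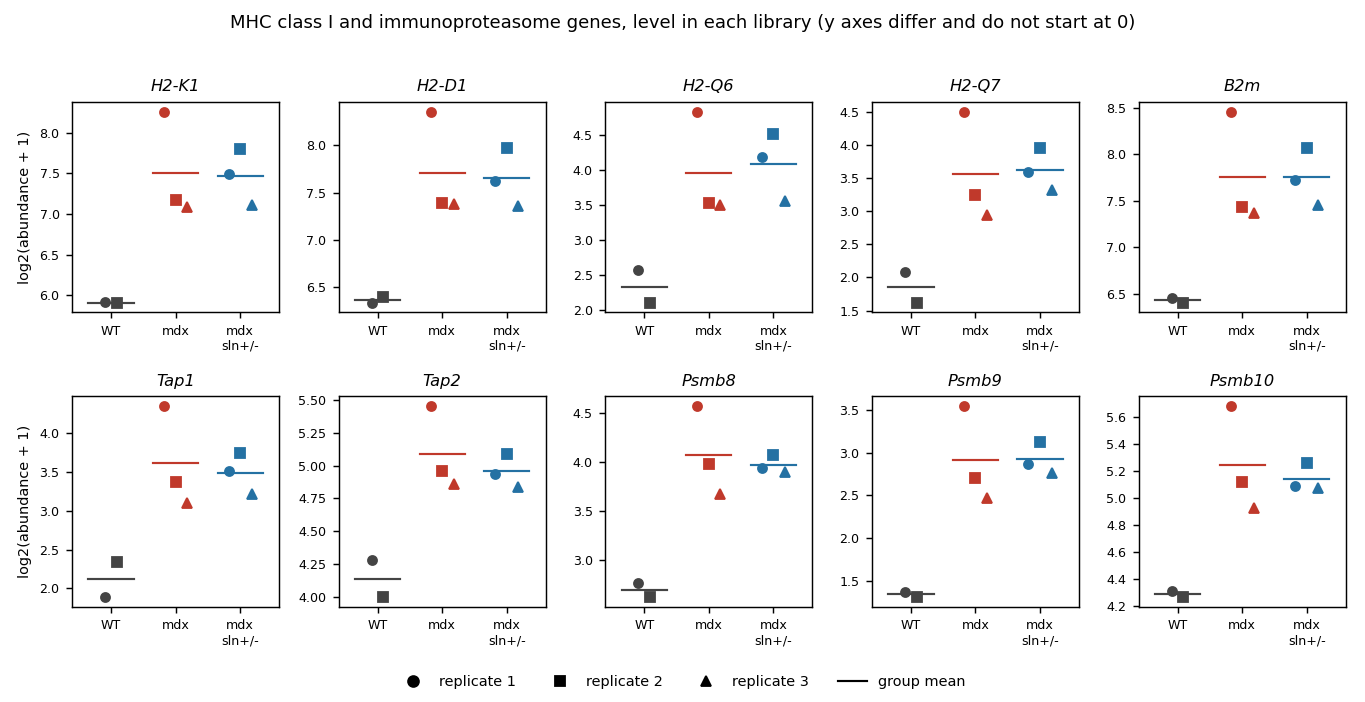
Level of each of the 10 genes as log2(abundance + 1) on the y axis, whose range differs between panels, in the 8 libraries grouped by genotype on the x axis. Points are libraries, with the replicate given by shape, and lines are group means. In every panel mdx 1 is the highest library and the 2 WT libraries are the lowest.

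H2-K1 and H2-D1 encode the classical heavy chains K and D, which present peptides to CD8 T cells. H2-K1 (ENSMUSG00000061232, chromosome 17, 33996017 to 34000347, minus strand, mm10) was at 5.91 and 5.91 in WT, at 8.26, 7.17 and 7.08 in mdx and at 7.49, 7.80 and 7.12 in mdx sln+/-. Its group levels were 5.91 ± 0.0029 (SD, n = 2), 7.51 ± 0.66 (SD, n = 3) and 7.47 ± 0.34 (SD, n = 3). The WT libraries stood together, mdx 1 stood above the other mdx libraries, and the lowest mdx library was 1.17 above the higher WT library. The difference of mdx from WT was 1.60 ± 0.37 (SE), or 3.03-fold, and that of mdx sln+/- from WT was 1.56 ± 0.37.

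H2-D1 (ENSMUSG00000073411, chromosome 17, 35262730 to 35267499, plus strand) was at 6.34 and 6.40 in WT, at 8.36, 7.39 and 7.38 in mdx and at 7.63, 7.97 and 7.36 in mdx sln+/-. The same library, mdx 1, was the highest, and mdx 2, mdx 3 and mdx sln+/- 3 lay within 0.1 of each other. H2-D1 differed from WT by 1.34 ± 0.32 (SE) in mdx and by 1.29 ± 0.32 in mdx sln+/-.

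H2-Q6 and H2-Q7 belong to the Qa-2 group of non-classical class I genes. H2-Q6 (chromosome 17, 35424850 to 35430055) was at 2.57 and 2.11 in WT, at 4.83, 3.53 and 3.50 in mdx and at 4.19, 4.51 and 3.56 in mdx sln+/-. H2-Q7 (chromosome 17, 35439155 to 35443773) was at 2.08 and 1.62 in WT, at 4.50, 3.24 and 2.94 in mdx and at 3.60, 3.96 and 3.32 in mdx sln+/-. The WT libraries of both genes were further apart than those of H2-K1, and neither gene overlapped between WT and the other genotypes. The differences from WT were 1.61 ± 0.47 and 1.71 ± 0.46 (SE) in mdx and 1.75 ± 0.47 and 1.77 ± 0.46 in mdx sln+/-. H2-Q6 in mdx was the 1 member that was not called.

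The heavy chain transcripts resemble each other, with 86.9 to 94.2% identity over the aligned bases of their most abundant transcripts, and 94.2% between H2-Q6 and H2-Q7 over 624 bases. How the counting placed reads that fit several of these genes is not given, so the split between them is uncertain. Of H2-K1, 61.8% of the abundance lay on the coding transcript H2-K1-201, and of H2-D1, 92.2% on the coding H2-D1-202. Of H2-Q7, 63.1% lay on H2-Q7-206, annotated as a retained intron, and 36.9% on the coding H2-Q7-204.

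The upstream regions of these 4 genes are shown because the heavy chains moved together and carry a nearly shared stretch there. The class I promoters are known for a stretch with an NF-kB site followed by an interferon-stimulated response element. In all 4, a search at RefSeq starts (GRCm38.p6, which has the coordinates of mm10) found the NF-kB consensus followed by GAANNGAAA. This form lacks the third A of the response element and was chosen after these sequences were seen. The full element was not found in these 4. Capitals mark the match to the NF-kB consensus and, on the opposite strand, to GAANNGAAA, and each is written 5′ to 3′ on the strand of its gene.
H2-K1, chr17:34000429-34000458, minus strand: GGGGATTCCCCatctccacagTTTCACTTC
H2-D1, chr17:35262923-35262952, plus strand: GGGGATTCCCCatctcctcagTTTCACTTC
H2-Q6, chr17:35424677-35424706, plus strand: GGGGATTCCCCatctccccagTTTCACTTC
H2-Q7, chr17:35439022-35439050, plus strand: GGGGATTCCCatctccccagTTTCACTTC

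Counted from 1 at the 5′ end of the H2-K1 stretch, H2-D1 differed by A18T and H2-Q6 by A18C, both between the capital parts. The H2-Q7 stretch has 29 bases instead of 30 and was not aligned. In H2-D1 the stretch lies inside the first exon of H2-D1-202 in GENCODE, whose start is 364 bases from the RefSeq start, so it may be transcribed there.

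B2m encodes beta-2 microglobulin, the light chain that all class I heavy chains need to fold and leave the endoplasmic reticulum. It lies outside the MHC, on chromosome 2 (122147686 to 122153083, plus strand). B2m was at 6.45 and 6.40 in WT, at 8.46, 7.43 and 7.36 in mdx and at 7.72, 8.07 and 7.46 in mdx sln+/-. Again WT was lowest, mdx 1 highest and mdx sln+/- 2 next. It differed from WT by 1.32 ± 0.35 (SE) in mdx and by 1.32 ± 0.35 in mdx sln+/-, or 2.50-fold in each. All of its measured abundance was on the coding transcript B2m-201. It overlaps Patl2 on the opposite strand, and whether the counting used the strand is not given.

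The 160 bases before the RefSeq starts of H2-K1 and B2m are given to set a heavy chain beside its light chain. Capitals mark the NF-kB match in both, GAANNGAAA on the opposite strand and TGACGC in H2-K1, and in B2m the full response element, GAAA and GAAA with any 2 bases between.
H2-K1, chr17:34000348-34000507, minus strand: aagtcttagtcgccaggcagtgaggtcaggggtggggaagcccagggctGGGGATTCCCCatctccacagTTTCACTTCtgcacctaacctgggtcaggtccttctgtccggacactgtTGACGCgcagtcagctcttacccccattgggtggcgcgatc
B2m, chr2:122147527-122147686, plus strand: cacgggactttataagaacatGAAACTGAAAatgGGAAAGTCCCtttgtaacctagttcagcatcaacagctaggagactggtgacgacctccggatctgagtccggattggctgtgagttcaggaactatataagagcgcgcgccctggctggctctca

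The table of upstream sequences (250 bases before to 50 after a RefSeq start) held 9 of the 10 members, all but Tap2. On either strand, the interferon-stimulated response element (GAAA and GAAA with any 2 bases between) was found in B2m and in 4.0% of all 27025 genes of the table. GAANNGAAA, a form with 1 A less, chosen after these sequences were seen and matched by other sites than the full element, was found in the 4 heavy chains and in 8.7% of genes. The NF-kB consensus was found in the 4 heavy chains and B2m and in 9.6% of genes. The 4 heavy chains hold both of these matches in the nearly shared stretch given above, so they are not 4 separate finds. TGACGC, the core of the X2 box of class I promoters, was found in H2-K1 and H2-D1 and in 8.4% of genes. TTCNNNGAA, the gamma-activated site, was found in Psmb8 and in 9.6% of genes. In Psmb8 this match lies after the GENCODE starts of Psmb8-203 and Psmb8-201, which hold 48.3% and 36.0% of its abundance. Those starts are 474 and 405 bases before the RefSeq start. TGACGTCA was found in 0 of the 9 members and in 2.0% of genes. A match describes these letters and is not evidence of binding.

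Tap1 and Tap2 encode the chains of the transporter that brings peptides to the class I molecules. Tap1 (chromosome 17, 34187553 to 34197225, plus strand) was at 1.89 and 2.34 in WT, at 4.35, 3.38 and 3.11 in mdx and at 3.51, 3.75 and 3.21 in mdx sln+/-. Tap2 (chromosome 17, 34203527 to 34216321, plus strand) was at 4.28 and 4.0 in WT, at 5.46, 4.96 and 4.86 in mdx and at 4.94, 5.09 and 4.84 in mdx sln+/-. Neither gene overlapped between WT and the other groups, and Tap1 was 1 of the 2 members, with H2-D1, in which WT 1 and not WT 2 was the lowest library.

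The difference of mdx from WT was 1.49 ± 0.38 (SE) for Tap1 and 0.96 ± 0.20 for Tap2. In mdx sln+/- it was 1.37 ± 0.38 and 0.82 ± 0.20. Of Tap2, 96.5% of the abundance was on Tap2-202, annotated as a retained intron, so the Tap2 values describe that transcript and hardly the coding Tap2-201. Tap1 was split between 2 coding transcripts, Tap1-201 with 60.3% and Tap1-206 with 39.7%.

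Psmb8, Psmb9 and Psmb10 encode the inducible catalytic subunits of the immunoproteasome. Psmb8 (chromosome 17, 34197721 to 34201454, plus strand) was at 2.76 and 2.62 in WT, at 4.57, 3.98 and 3.67 in mdx and at 3.94, 4.07 and 3.89 in mdx sln+/-. Psmb9 (chromosome 17, 34181987 to 34187764, minus strand) was at 1.38 and 1.32 in WT, at 3.54, 2.71 and 2.48 in mdx and at 2.87, 3.13 and 2.76 in mdx sln+/-. Psmb8 and Psmb9 lie within the MHC beside the transporter genes, and the RefSeq starts of Tap1 and Psmb9 are 226 bases apart on opposite strands. Their upstream windows share 275 bases, and the genes overlap over 212 bases, so reads there may have been assigned to either. In GENCODE the most abundant transcripts, Psmb9-204 (76.6%) and Tap1-201 (60.3%), start 434 and 246 bases from these RefSeq starts.

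Psmb10 lies outside the MHC on chromosome 8 (105935735 to 105938444, minus strand). It was at 4.31 and 4.27 in WT, at 5.68, 5.12 and 4.92 in mdx and at 5.09, 5.26 and 5.07 in mdx sln+/-. All 3 subunits were lowest in WT 2 and highest in mdx 1. They differed from WT by 1.38 ± 0.25 (Psmb8), 1.56 ± 0.31 (Psmb9) and 0.95 ± 0.21 (Psmb10) in mdx (SE), and by 1.27 ± 0.25, 1.57 ± 0.31 and 0.85 ± 0.21 in mdx sln+/-. The measured antisense gene Gm16156 overlaps Psmb10 over 2710 bases, so part of its reads could come from that strand.

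The 10 genes varied together over the libraries. Each correlated with the mean of the other 9 at Pearson's r of 0.973 (Tap1) to 0.998 (H2-K1) over the 8 libraries, a description that includes the genotype difference. Centred on its mean, the average member was at -0.98 and -1.08 in WT, at 1.02, 0.11 and -0.05 in mdx and at 0.32, 0.58 and 0.08 in mdx sln+/-. The library mdx 1 was the highest in all 10 genes, and WT 2 was the lowest in 8. In fits without mdx 1, mdx 3 or mdx sln+/- 1 or 3, here and below, the term for mdx 2 and mdx sln+/- 2 shifts the differences. They are then not plain differences of group means. Without mdx 2 or mdx sln+/- 2 the term takes up the other library, so both are in effect left out. Without mdx 1 the fitted differences of mdx from WT were 0.64 to 1.11 with 9 members called. Without WT 1 they were 0.97 to 1.94 with 2 called, without WT 2 they were 0.81 to 1.72 with 0 called, and without mdx sln+/- 1 they were 0.96 to 1.71 with 3 called. In mdx sln+/- against WT, 1 member was called without WT 1, 2 without mdx 2 or mdx sln+/- 2, and 0 without WT 2, mdx sln+/- 1 or mdx sln+/- 3. Without WT 2 and mdx sln+/- 3, the libraries low in Ddx3y, the differences of mdx from WT were 0.83 to 1.76. The labels of replicates 1 and 2 of both mdx genotypes hold an index number and those of WT do not. With a term for this the differences of mdx from WT were 0.76 to 1.27 with 3 called.

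The comparison of mdx sln+/- with mdx asks what the loss of 1 Sln copy changes in the dystrophic ventricle. No difference was detected in the members. The 10 differences ran from -0.13 (Tap2) to 0.13 (H2-Q6), with standard errors of 0.17 to 0.40, and the adjusted p in limma was 0.832 to 0.998. The 95% intervals of the 10 differences together spanned -0.88 to 1.07, and that of Tap2 ran from -0.53 to 0.26. These intervals are wide beside the differences from WT, so the values do not show that the 2 genotypes are alike. Over all 13783 genes limma called 0 (0%), with 1186 (8.6%) at an unadjusted p under 0.05 and a smallest adjusted p of 0.477.

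The sign of these fitted differences turned with the libraries left out. Without mdx 1 all 10 were positive, at 0.07 to 0.64, and without mdx sln+/- 3 there were 7 positive, at -0.07 to 0.43 over the 10. Without mdx 3 all 10 were negative, at -0.41 to -0.13. They were also negative, at -0.38 to -0.19, without mdx 2 or mdx sln+/- 2. Leaving out either of these gave the same differences, since the term then takes up the other. Both libraries are in effect left out there, so these values do not show the part of a single library. None was called in any of these fits.

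**Figure D2:**
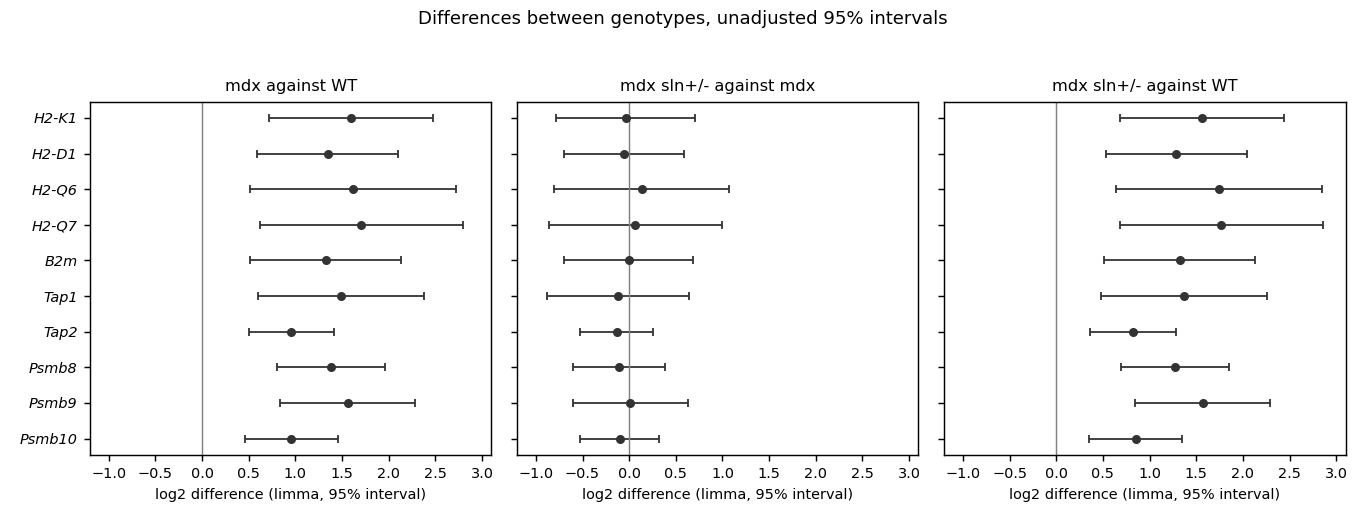
Log2 differences of the 10 genes (x axis) with unadjusted 95% intervals from limma, with 1 panel for each pair of genotypes. The points of the middle panel lie between -0.13 and 0.13 with intervals across 0, whereas those of the outer panels lie between 0.82 and 1.77.

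Beside the members, 77 genes of 7 pathway lists were examined, of which 69 were measured and 68 tested. In mdx against WT, 10 rose and 4 fell (limma, adjusted p under 0.05), beside 8.15% of all genes higher and 6.94% lower. In mdx sln+/- against WT, 12 rose and 2 fell, beside 9.41% and 6.5%. These shares over all genes also stand beside the counts of each single list below. None was called between the mdx genotypes. Without WT 2 the number that rose in mdx was 1, and without mdx sln+/- 1 it was 3. Over the alternatives tried for mdx against WT, the call held in 6 of 23 for Psme1, in 8 of 23 for Lnpep, in 11 of 23 for Erap1 and in 9 of 22 for Nlrc5, against 20 of 23 for Tapbp and 21 of 22 for H2-M3.

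Among 11 measured relatives of the class I heavy chains, 3 rose and 1 fell in mdx. H2-M3, which presents N-formylated peptides, rose from 1.21 and 1.12 in WT to 2.78, 2.43 and 2.17 in mdx, by 1.29 ± 0.18 (SE, limma adjusted p = 0.00749). H2-T23, which encodes Qa-1, the ligand of an inhibitory receptor of natural killer cells, rose by 1.36 ± 0.29 (limma adjusted p = 0.0245). H2-Q4, chosen after its values were seen, rose by 1.36 ± 0.31 (limma adjusted p = 0.0299), and it shares sequence with H2-K1 (91.4% identity) and H2-Q6 (92.4%), so its reads are uncertain too. H2-T24 fell by 0.52 on the log2 scale (SE 0.11, limma adjusted p = 0.0227), from 3.11 and 3.20 in WT to 2.58, 2.74 and 2.59 in mdx. The list's median was 0.33, beside 0.02 over all genes. Of the 7 that were not called, H2-T22 had the largest value, 1.25 ± 0.38 (limma adjusted p = 0.0669), H2-Q10 was at 0.58 ± 0.26, and Fcgrt, the neonatal Fc receptor, and Mr1, which presents vitamin metabolites, were at 0.07 ± 0.10 and 0.04 ± 0.11.

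Of 9 genes that load or trim peptides, 2 rose and 1 fell in mdx. Tapbp encodes tapasin, which holds empty class I molecules at the transporter. It was at 5.72 and 5.70 in WT, at 6.35, 6.23 and 6.12 in mdx and at 6.29, 6.28 and 6.25 in mdx sln+/-, and it rose by 0.53 ± 0.08 in mdx (SE, limma adjusted p = 0.0102). Erap1, the aminopeptidase that trims peptides in the endoplasmic reticulum, rose by 0.33 ± 0.08 (limma adjusted p = 0.0403). Lnpep, an aminopeptidase of endosomes, fell by 0.33 on the log2 scale (SE 0.09, limma adjusted p = 0.0485). The chaperones Calr and Canx were at 0.23 ± 0.07 and -0.11 ± 0.07 and were not called.

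Of the 3 constitutive catalytic subunits of the proteasome, 0 rose and 1 fell in mdx. Psmb5, the constitutive counterpart of Psmb8, was at 5.60 and 5.50 in WT, at 4.83, 5.06 and 5.12 in mdx and at 5.24, 5.07 and 5.06 in mdx sln+/-. It fell by 0.55 on the log2 scale in mdx (SE 0.11, limma adjusted p = 0.0213) and by 0.43 in mdx sln+/- (SE 0.11, limma adjusted p = 0.043). Psmb6 and Psmb7, the counterparts of Psmb9 and Psmb10, were not called, at 0.11 ± 0.08 and 0.05 ± 0.07 (SE) in mdx. Of the 11 other subunits of the 20S core, 0 were called in mdx and 1 in mdx sln+/- (Psmb4, a non-catalytic subunit, 0.27 ± 0.07, limma adjusted p = 0.0451).

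Within a library, the log2 level of Psmb8 minus that of Psmb5 was -2.84 and -2.88 in WT, -0.26, -1.08 and -1.45 in mdx and -1.30, -1.0 and -1.17 in mdx sln+/-. For Psmb9 minus Psmb6 the group means were -4.77 (WT), -3.32 (mdx) and -3.37 (mdx sln+/-). For Psmb10 minus Psmb7 they were -2.36, -1.46 and -1.70. In each pair WT was below all other libraries, and only the change of these values between libraries can be read, since the scale between genes is not known.

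Among 9 activators and assembly factors, 2 rose in mdx. Psme1, a subunit of the interferon-inducible activator PA28, rose by 0.35 ± 0.09 (SE, limma adjusted p = 0.0458). Its most abundant transcript alone was at 0.11 and was not called (limma adjusted p = 0.657). Its partner Psme2 was at 0.28 ± 0.11 (limma adjusted p = 0.118), while in mdx sln+/- Psme2 rose by 0.41 ± 0.11 (limma adjusted p = 0.0429). The assembly chaperone Psmg4 rose by 0.50 ± 0.12 (limma adjusted p = 0.0387). Pomp, the maturation factor of new proteasomes, was at 0.15 ± 0.09 and was not called.

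**Figure D3:**
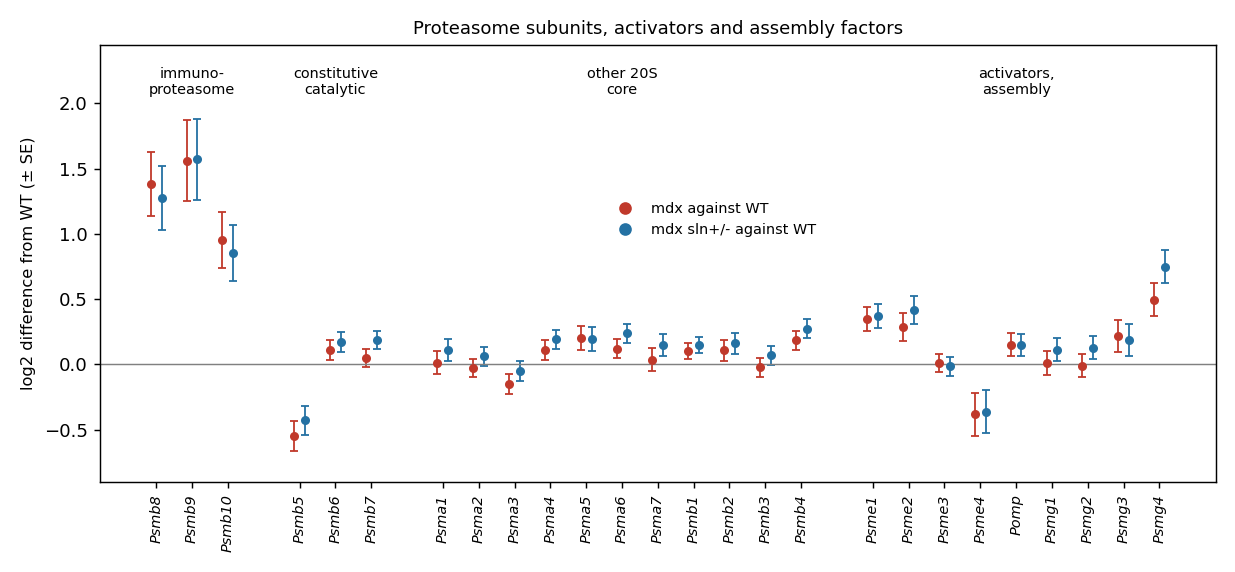
Log2 difference from WT (y axis, points with SE from limma) of proteasome genes in mdx and in mdx sln+/-, arranged along the x axis by role. The 3 immunoproteasome subunits lie between 0.85 and 1.57, the constitutive subunit Psmb5 lies below 0, and the 11 other core subunits lie between -0.15 and 0.27.

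Of 17 transcription factors that act on class I promoters, 3 rose and 1 fell in mdx. Nlrc5, the class I transactivator, was at 1.25 and 1.19 in WT, at 2.88, 2.26 and 1.85 in mdx and at 2.33, 2.47 and 2.13 in mdx sln+/-. It rose by 1.08 ± 0.29 in mdx (SE, limma adjusted p = 0.0451) and by 1.06 ± 0.29 in mdx sln+/- (limma adjusted p = 0.0466). Without mdx 1 the difference of mdx was 0.68, and without WT 2 it was not called.

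Irf9, the DNA-binding part of the type I interferon complex ISGF3, rose by 0.70 ± 0.12 in mdx (SE, limma adjusted p = 0.0149) and by 0.91 ± 0.12 in mdx sln+/- (limma adjusted p = 0.00695). Rfx5, a subunit of the factor that binds the X box with Nlrc5, fell by 0.59 on the log2 scale in mdx (SE 0.11, limma adjusted p = 0.0167). Irf1, an interferon-induced activator of class I and immunoproteasome genes, was at 4.22 and 3.77 in WT, at 4.57, 4.16 and 4.51 in mdx and at 4.46, 4.61 and 4.0 in mdx sln+/-. These ranges overlapped, and its difference of 0.42 ± 0.24 was not called (limma adjusted p = 0.263).

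Of the interferon and TNF ligands, receptors and kinases, 9 of 12 were measured, and the ligands Ifng, Ifnb1 and Tnf were not analysed here. None of the 8 tested was called in mdx or in mdx sln+/- against WT. The type I receptor chains Ifnar1 and Ifnar2 were at 0.20 ± 0.08 and 0.24 ± 0.09 in mdx (SE), with limma adjusted p-values of 0.124 and 0.112. The kinase Jak2 was at -0.35 ± 0.11 (limma adjusted p = 0.0801).

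Between the first base of H2-K1 and the last of H2-Q7 (chromosome 17, 33996017 to 35443773) 65 genes were tested, 8 of them members. Of the 57 others, 8 rose and 0 fell in mdx, beside 8.15% of all genes higher and 6.94% lower. They were chosen for naming after their values were seen: the MHC class II genes H2-Ab1, H2-Eb1, H2-Aa, H2-DMb1 and H2-DMa, and H2-Q4, Gpsm3 and Zbtb12. H2-Ab1, a class II chain of antigen-presenting cells, had the largest difference of the 65, at 3.05 ± 0.36 (SE, limma adjusted p = 0.00477). Of the 49 genes that were neither members nor named H2-, 2 rose, Gpsm3 by 0.67 ± 0.18 (limma adjusted p = 0.0452) and Zbtb12 by 0.55 ± 0.13 (limma adjusted p = 0.0333). The share that rose among these 49 was below the 8.15% over all genes. The median of these 49 was 0.10, beside 0.02 over all genes.

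**Figure D4:**
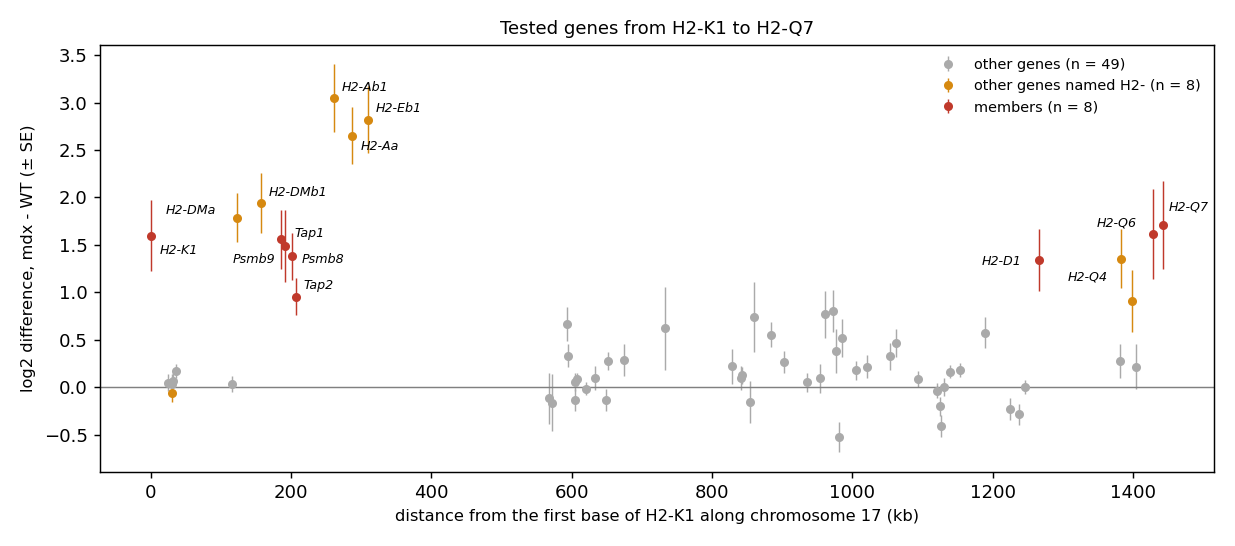
Log2 difference of mdx from WT (y axis, points with SE) for the 65 tested genes between H2-K1 and H2-Q7, by distance from the first base of H2-K1 in kilobases (x axis). The 8 members and 7 of the 8 other genes named H2- lie above 0.9, and the 49 other genes lie around a median of 0.10.

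Among the 8 genes outside the members whose log2 levels followed the members' mean most closely, taken from genes with a mean level of at least 3 and no predicted-gene symbol, were Parp14, Rps16-ps2, Nosip, Tmbim1, Spg7, Nol3 and Shisa5. Pearson's r over the 8 libraries was 0.995 for Parp14, 0.994 for the pseudogene Rps16-ps2 and 0.988 to 0.990 for the others named. Parp14 was at 4.04 and 4.01 in WT, at 4.99, 4.59 and 4.58 in mdx and at 4.68, 4.84 and 4.62 in mdx sln+/-. The high library was mdx 1 in these genes as well. These values of r include the step from WT to the other genotypes.

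Of the cell marker sets compared, that of macrophages moved most closely with the members. Of 17 measured macrophage markers of 18, 7 rose in mdx and 7 in mdx sln+/-, beside 8.15% and 9.41% of all genes, and 0 fell. Without WT 2 both counts were 2, and without WT 2 and mdx sln+/- 3 both were 0. In mdx, Fcer1g, a signalling chain of Fc receptors, rose by 1.04 ± 0.13 (SE, limma adjusted p = 0.0057). Ccr2, the receptor of recruited monocytes, rose by 1.23 ± 0.22 (limma adjusted p = 0.0158), and the integrin chain Itgam by 0.65 ± 0.12 (limma adjusted p = 0.0179). Itgam was not called in mdx sln+/- against WT, at 0.34 ± 0.12 (limma adjusted p = 0.108). In mdx 10 markers were not called, among them Mrc1 at 0.07 ± 0.14 (limma adjusted p = 0.759). The summed abundance of the macrophage markers was 271.0 and 267.3 in WT, 471.3, 364.6 and 372.6 in mdx and 393.3, 438.7 and 371.5 in mdx sln+/-. It was highest in mdx 1 and next in mdx sln+/- 2, the order seen in the members. The mean centred levels of the 2 sets correlated at r = 0.993 over all 8 libraries and at 0.986 over the 6 mdx and mdx sln+/- libraries. For the other marker sets the 2 values were 0.648 and 0.864 (endothelial), 0.816 and 0.56 (fibroblast) and -0.154 and -0.883 (cardiomyocyte), as descriptions over few libraries.

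Of the 14 genes listed for T and natural killer cells, 1 was measured, Pirb, at 0.13 ± 0.32 in mdx and not called. As a receptor of myeloid cells it does not stand for T or natural killer cells, and Cd8a and Cd3e were not analysed here. Of the B cell markers 1 of 5 was measured, Ighm, which rose by 0.70 ± 0.19 (SE, limma adjusted p = 0.0471). Of 8 cardiomyocyte markers 0 were called, and of 7 fibroblast markers 1 rose, Col1a1. Of 10 endothelial markers 2 rose, Tek and Emcn, and 1 fell, Vwf. These counts are for mdx against WT, where 8.15% of all genes were called higher and 6.94% lower. Summed fibroblast markers were 625.5 and 743.2 in WT, 728.2 to 845.7 in mdx and 716.2 to 798.3 in mdx sln+/-, and summed endothelial markers were 1137.2 and 1351.0 in WT, 1185.9 to 1364.0 in mdx and 1222.6 to 1365.1 in mdx sln+/-. The part of any of these cells in the members' levels was not tested.

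**Figure D5:**
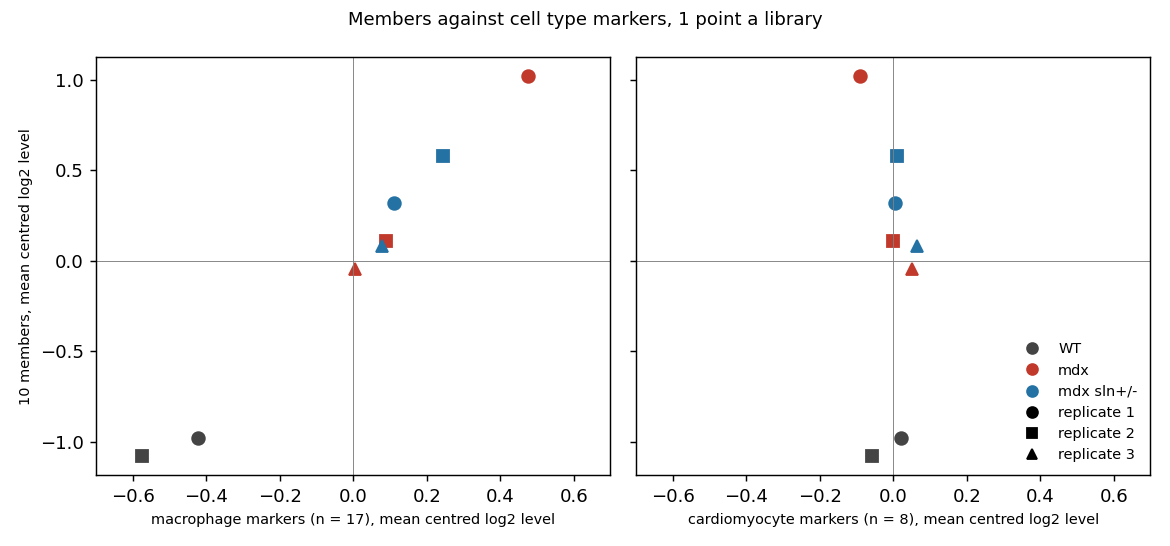
Mean centred log2 level of the 10 members (y axis) against that of 17 macrophage markers (left x axis) and 8 cardiomyocyte markers (right x axis), 1 point for each of the 8 libraries. The members rise with the macrophage markers (r = 0.993), and the cardiomyocyte markers lie between -0.09 and 0.06 (r = -0.154 over all libraries and -0.883 over the 6 mdx and mdx sln+/- libraries).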

How the data were processed

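Total RNA of mouse left ventricle was sequenced with paired ends in 8 libraries, grouped by the genotype label. Per the submitters' processing notes, STAR 2.6.1, Partek and limma were used with build mm10. The order of these steps, the annotation, the strand setting and any length normalization are not given in the sources used here. The authors deposited log2 values for 33027 transcripts in 16 columns, an r1 and an r2 column per library, all mapped (0 unmapped). The values run from 3.07e-05 to 16.2 and were read as log2(abundance + 1), an inference from the values. What r1 and r2 stand for is not given; with correlations of 0.981 to 0.987 they were averaged and count as 1 sample. Depth and the precision it would give are unknown.

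Abundances were summed over the transcripts of a gene, and 795 genes of low value were left out of the tests. limma 3.58.1 (R 4.3.3) was fitted on log2(value + 1) over all 8 libraries, with group, a term for mdx 2 and mdx sln+/- 2 against the other mdx and mdx sln+/- libraries, a trended empirical Bayes prior (median prior degrees of freedom 3.37, residual 4) and Benjamini-Hochberg adjustment over 13783 genes at 0.05, after it was tested on simulated data. On this scale the change of low genes is understated. The members and lists were chosen with earlier results of these data known. Named genes are the 10 members, up to 3 genes per list with the smallest adjusted p in mdx against WT, Psmb5, Psmb6, Psmb7, Nlrc5, Irf1, Tapbp, Psme1 and Psme2, and the 8 genes of most similar pattern; 1 gene that this names is not reported here. Others, and genes of a list given as not called, were chosen after their values were seen. Gene positions are from GENCODE M21, sequences and starts from RefSeq (GRCm38.p6), and identities from blastn 2.17.0. Python 3.11.15, numpy 2.4.6, pandas 2.3.3 and matplotlib 3.10.9 were used. Alternatives were other model terms, scalings, filters, a pseudocount of 0.1, r1 or r2 alone, the most abundant transcript, fewer samples and each library left out.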

Additional observations from a re-analysis of the deposited data

How the results depend on the processing

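The members lay above WT in all 230 alternative values of each comparison (0.64 to 2.15 in mdx, 0.65 to 2.12 in mdx sln+/-). This sign adds no evidence, since they were chosen as higher and lay above both WT libraries in every other library. The calls depend on the model with 2 WT libraries. In mdx against WT, 2080 genes were called in either direction, and 9 members and 10 pathway genes higher. With the group only these were 3798 genes and 21 pathway genes. With only the 2 groups compared they were 529 genes, 0 members and 3 pathway genes. In that fit the term marks mdx 2 alone and takes it up, so only mdx 1 and mdx 3 stand against WT. A term for whether a library name holds an index number (mdx 1 and 2 and mdx sln+/- 1 and 2) gave 3 members, at 0.76 to 1.27, and 4 pathway genes, and together with the term for mdx 2 and mdx sln+/- 2 559 genes, 1 member and 3 pathway genes. A prior without a trend gave 6 pathway genes. Without WT 2 and mdx sln+/- 3, the libraries low in Y-linked genes, 154 genes, 0 members and 0 pathway genes were called, a choice made after seeing the data, as was the joint term.

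In mdx sln+/- against WT the main counts were 2193, 10 and 12. They were 3996 genes and 27 pathway genes with the group only, 2 members with the name term, and 711, 1 and 3 with both terms. They were 66, 0 and 0 without the 2 libraries low in Y-linked genes, 5 members and 7 pathway genes with median-ratio scaling, and 5 members with r1 alone. Leaving out each library in turn gave 638 (without WT 2) to 1811 genes, 0 to 10 members and 1 to 10 pathway genes in mdx, and 316 (without mdx sln+/- 1) to 2402 genes, 0 to 10 members and 2 to 19 pathway genes in mdx sln+/-. Without mdx 2 or mdx sln+/- 2 both were in effect left out, since the term takes up the other. The cause of the changes in these counts was not tested.

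Between the mdx genotypes 0 genes were called in every alternative, with values for the members of -0.41 to 0.64. Signs turned in alternatives as follows: without the 2 libraries low in Y-linked genes H2-K1 was at 0.16, H2-D1 at 0.11, B2m at 0.16 and Tap1 at 0.04; H2-Q7 was at -0.02 (r2 alone); B2m was at 0.02 (r1 alone); Psmb9 was at -0.02 (median-ratio scaling), -0.01 (upper quartile), -0.03 (r1 alone) and -0.06 (most abundant transcript). Leaving out each library in turn gave -0.37 to 0.39 for H2-K1, -0.38 to 0.31 for H2-D1, -0.29 to 0.64 for H2-Q6, -0.29 to 0.60 for H2-Q7, -0.32 to 0.40 for B2m, -0.41 to 0.31 for Tap1, -0.27 to 0.07 for Tap2, -0.33 to 0.18 for Psmb8, -0.24 to 0.37 for Psmb9 and -0.28 to 0.15 for Psmb10. In mdx against WT, Psmb7 turned to -0.01 without WT 2, alone or with mdx sln+/- 3, and Psme2 to -0.10 with its most abundant transcript. Of the 7 same-numbered pairs of libraries, r of the deviations from the group means was 0.148 (WT 1 with mdx 1), 0.18 (WT 2 with mdx 2), -0.005 and -0.18 (WT with mdx sln+/-) and -0.264, -0.996 and -0.311 (mdx with mdx sln+/-, where the contrast that is 0 in the values constrains r). Since not every pair was above 0.1, the numbers were not taken to pair the samples. The contrast keeps mdx 2 with mdx sln+/- 2 from meeting this rule, so the rule cannot decide if the numbers pair the samples. The replicate block gave 2397 genes and 10 members in mdx, and 2363 and 10 in mdx sln+/-, against WT, and 0 between the mdx genotypes.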
